A study of Caenorhabditis elegans with 2 samples.

Results

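The proteasome subunit genes of Caenorhabditis elegans were examined for peaks of the zinc finger protein ZFP-2. Members were the WBcel235 protein-coding genes whose symbol begins with pas-, pbs-, rpn- or rpt-, which gave 33 of 19973 nuclear protein-coding genes. Of these, 14 encode the core particle (7 pas and 7 pbs genes) and 19 the cap (10 of its base and 9 of its lid). The data came from chromatin immunoprecipitation and sequencing of whole hermaphrodites in 1 group of 2 biological replicates. The animals were of strain OP534, genotype unc-119(tm4063) III; wgIs534, in which a stable transgene supplied ZFP-2 with a C-terminal tag of GFP and FLAG. They were collected as L4 larvae, 52 hours after starved L1 larvae were released, and chromatin was precipitated with an antibody against GFP according to the sample description, although the antibody field of the labels names zfp-2. All animals carried the transgene and the unc-119 mutation, so no untagged or wild-type group entered, and the level of the tagged protein was not measured. Whole animals were used, so a peak cannot be assigned to a tissue.

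The proteasome degrades proteins that carry ubiquitin. Its core is a barrel of stacked rings: the outer rings are built of alpha subunits, encoded by pas genes, and the inner rings of beta subunits, encoded by pbs genes, some of which hold the proteolytic sites. The cap sits on the end of the barrel. Its base contains the AAA ATPases of the rpt genes, which unfold substrates, together with scaffold and ubiquitin-binding proteins, and its lid removes ubiquitin. Subunits are needed in fixed proportions, and in worms the transcription factor SKN-1 is known to raise their expression when proteasome function is impaired.

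A gene was scored by the summits in its promoter window, which covered the 1000 bp before each annotated 5′ end and the 200 bp after it. Several peak lists were used: a thresholded list of 660 peaks (642 of them nuclear), a pooled list of 14658 peaks and a list for each replicate (18200 and 17770 peaks). All but the thresholded list include background calls. The thresholded peaks were the 660 strongest of the pooled list, so rank 660 there marks the threshold. Signal is the authors' value per peak, on a scale of its own in each list, and rank 1 is the strongest peak of a list. Read depth is unknown.

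Of the 33 members, 4 had a thresholded summit in the window (12.1%, exact Clopper-Pearson 95% interval 3.40 to 28.2), against 2.79% of all protein-coding genes. The core genes among them were pbs-1 and pbs-2 and the cap genes rpn-3 and rpn-11. The interval treats genes as independent and covers counting error only. The pbs-1 gene (WBGene00003947, IV from 1708814 to 1709745, minus strand) encodes a catalytic beta subunit and carried the strongest peak. That peak had signal 534 in the pooled list (rank 52), 251 in replicate 1 (rank 52) and 285 in replicate 2 (rank 49). Its summits in the replicates lay 1 bp apart, 199 and 198 bp upstream of the 5′ end.

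The second, rpn-3 (WBGene00004460, III from 8447353 to 8449346, plus strand), encodes a structural lid subunit. Its peak had signal 182 in the pooled list (rank 163), 85.1 in replicate 1 (rank 148) and 92.4 in replicate 2 (rank 195). The third, rpn-11 (WBGene00004467, II from 4043055 to 4044546, minus strand), encodes the metalloprotease of the lid that cuts ubiquitin chains off substrates. Its peak had signal 143 in the pooled list (rank 234), 73.5 in replicate 1 (rank 182) and 73.8 in replicate 2 (rank 277). Replicate summits were 6 bp apart at rpn-3 and 21 bp apart at rpn-11, so each peak was placed alike in both replicates.

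The sequence at the summits of these genes is given with that of rpn-9 and rpt-6. These are members below the threshold whose summits hold words that are frequent at ZFP-2 summits. The pas-4 and rpt-2 summits, also below the threshold, held none of these words and are not printed. The sequences show where such words occur among the members. Each is the RefSeq WBcel235 sequence within 50 bp of the summit on the gene's strand, 5′ to 3′, and the rpn-11 stretch ends at the base before its transcript. Capitals mark matches, on either strand, to the word ACGCAG, to GACGCA (overlapping it), to ACGCGC, and to the overlapping pair formed by CGAGAG with the word GCGAGA.
pbs-1, chrIV:1709894-1709994, minus strand: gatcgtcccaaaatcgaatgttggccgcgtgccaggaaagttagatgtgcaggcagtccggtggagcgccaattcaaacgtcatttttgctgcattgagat
rpn-3, chrIII:8447110-8447210, plus strand: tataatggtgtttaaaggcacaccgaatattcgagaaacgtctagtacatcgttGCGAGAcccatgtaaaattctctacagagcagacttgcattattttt
rpn-11, chrII:4044547-4044600, minus strand: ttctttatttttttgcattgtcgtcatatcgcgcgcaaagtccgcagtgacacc
rpn-9, chrII:11239120-11239220, minus strand: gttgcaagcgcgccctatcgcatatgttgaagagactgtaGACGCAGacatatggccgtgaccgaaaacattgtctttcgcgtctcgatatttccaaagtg
rpt-6, chrIII:12370171-12370271, plus strand: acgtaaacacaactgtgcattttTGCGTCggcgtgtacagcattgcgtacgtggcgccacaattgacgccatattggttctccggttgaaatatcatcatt

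These words had been picked because they were frequent at ZFP-2 summits in these same data, so their counts at members describe and support nothing. ACGCAG was found within 50 bp of 113 of the 642 nuclear thresholded summits (17.6%) and GACGCA, which overlaps it, of 103 (16%). None of the 4 thresholded member summits had either word. Of the 8 strongest member summits (those to rank 1320), the rpn-9 summit had both, and GACGCA alone was found at rpt-6. The word GCGAGA, present at 17.9% of thresholded summits, was found at rpn-3 alone among the 8. GC content in the 101 bp around the summit was 50.5% at pbs-1, 37.6% at rpn-3, 47.5% at rpn-11 and 31.7% at pbs-2. Below the threshold it was 45.5% at pas-4, 46.5% at rpt-6, 48.5% at rpn-9 and 27.7% at rpt-2. Over the 642 thresholded summits it was 49.4% ± 8.01 (SD).

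Words were also searched on both strands of the promoter sequence, from 250 bp upstream to 50 bp downstream of the most upstream 5′ end. ACGCAG was in 0 of 33 member promoters, against 8.24% of all protein-coding genes, and GACGCA in 1 (3.03% against 8.8%). The matches at the rpn-9 and rpt-6 summits lay just beyond the 250 bp edge of this search. The rpn-9 match includes ACGCAG, so the 0 depends on where the search ended. GCGAGA was in 7 of 33 (21.2% against 9.53%), namely pas-7, pbs-1, pbs-5, pbs-7, rpn-3, rpn-6.1 and rpn-12. CGAGAG, which overlaps GCGAGA, was in 1 (3.03% against 9.76%) and ACGCGC in 4 (12.1% against 5.93%). GTCAT, a core sequence of SKN-1 sites, was in 20 of 33 member promoters (60.6% against 39.6%), in 10 of 14 core and 10 of 19 cap genes. The other such core, ATCAT, was in 19 (57.6% against 55.8%), and the TATA sequence TATAAA in 10 (30.3% against 38.0%). Within 50 bp of the 642 nuclear thresholded summits, GTCAT was found at 11.8%, ATCAT at 10.7% and TATAAA at 5.3%. Those stretches are shorter than the promoter sequence, so the shares are not on the same footing. Among the thresholded member summits, pbs-1 and rpn-11 had GTCAT, which is not marked above. A match is only a run of letters. Whether any of these words is bound was not tested.

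The fourth member with a thresholded summit was pbs-2 (WBGene00003948, I from 12967216 to 12968280, minus strand), which encodes another catalytic beta subunit. Its peak had signal 115 in the pooled list (rank 342), 49.7 in replicate 1 (rank 385) and 68.6 in replicate 2 (rank 313). The ratio of the replicate 2 signal to that of replicate 1 was 1.38 here, against 1.13 at pbs-1, 1.09 at rpn-3 and 1.00 at rpn-11. As the lists have separate scales, ranks compare better. All 4 peaks were within the 660 strongest of each replicate. The nearest tRNA, snoRNA or snRNA gene was 20549 bp away at rpn-3 and farther at pbs-1, pbs-2 and rpn-11. The rpn-3 summit was 65 bp from another annotated non-coding RNA gene, C30C11.14, whose part in the peak was not tested.

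**Figure D1:**
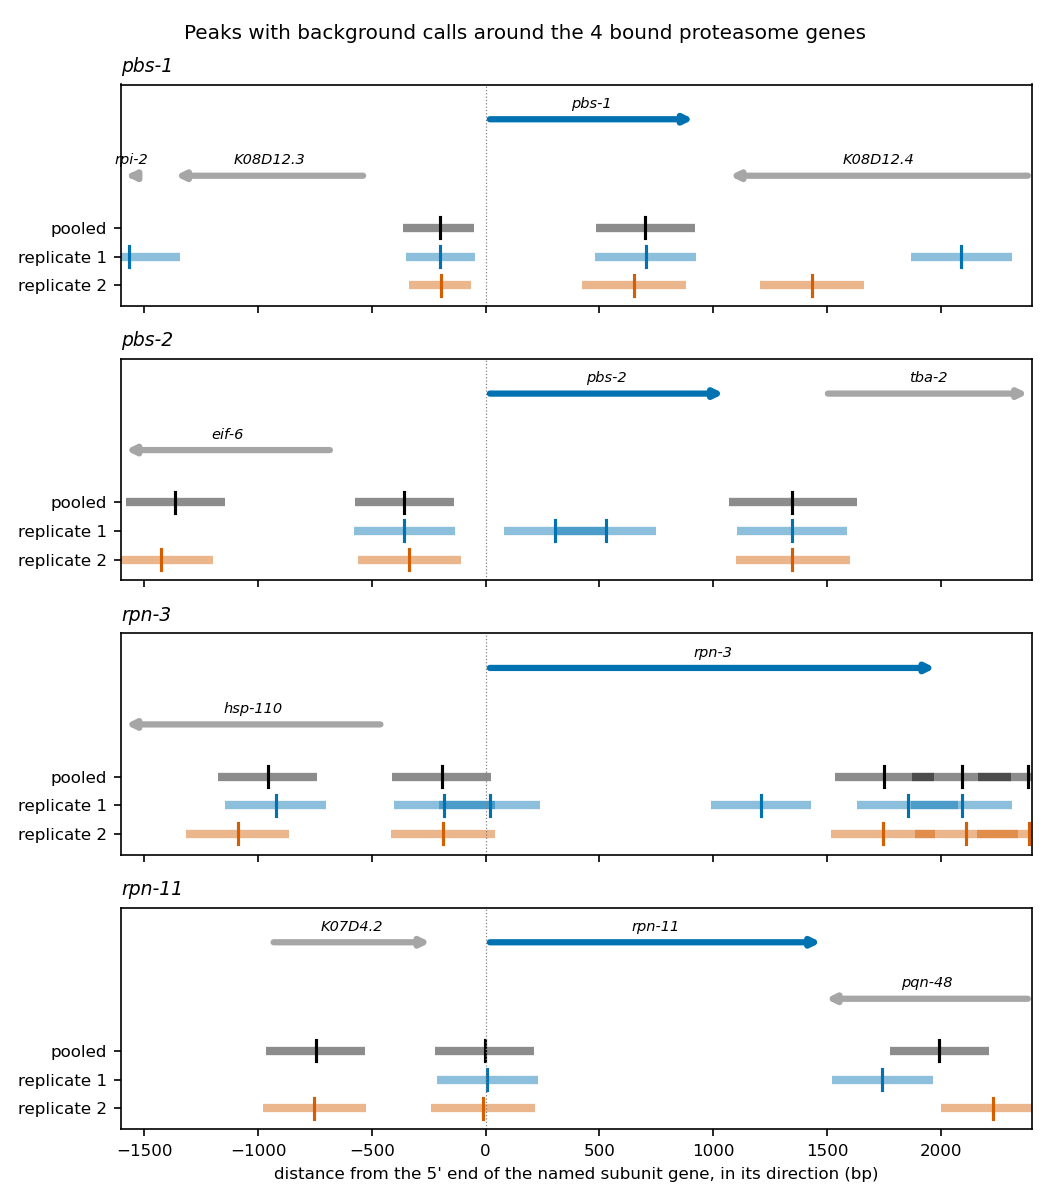
Genes and peaks around the 4 bound proteasome genes, as distance in bp from the 5′ end of the named gene and in its direction. Arrows are genes (blue, the named subunit), bars are peaks of the pooled, replicate 1 and replicate 2 lists, background calls included, and ticks are summits. In every panel a summit of all 3 lists stands at the promoter: 199 bp upstream at pbs-1, 357 bp at pbs-2, 193 bp at rpn-3 and 4 bp at rpn-11 in the pooled list.

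Of the 4 peaks, 3 lay between divergent genes and counted for both. The pbs-1 summit was 199 bp upstream of pbs-1 and 321 bp upstream of K08D12.3, which RefSeq describes as a protein with a CCHC-type domain. The rpn-3 summit was 193 bp upstream of rpn-3 and 251 bp upstream of hsp-110, a chaperone gene. The pbs-2 summit was nearer to the partner: 309 bp upstream of eif-6, a factor of ribosome assembly, and 357 bp upstream of pbs-2. Binding at such a peak cannot be assigned to either gene from peak positions.

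The rpn-11 peak was in no other gene's window. It ran from 4044332 to 4044767 on II, in the 225 bp between rpn-11 and the end of K07D4.2, which lies upstream on the same strand, and over the start of rpn-11 itself. Its summit was 4 bp upstream of the first annotated 5′ end. K07D4.2 had no pooled summit in its own window. A weak pooled peak (rank 9706) did cover its start, as did a peak of replicate 2, but the pooled summit lay 203 bp past its 5′ end, just outside the window. Downstream of pbs-2 stood a far stronger peak, with signal 2381 (rank 16). Its summit was 1345 bp downstream of the pbs-2 5′ end, past the end of the gene and in front of the alpha-tubulin gene tba-2, and it did not count for pbs-2.

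Both sides of the proteasome were represented in the thresholded list, with 2 of 14 core genes (14.3%, exact 95% interval 1.78 to 42.8) and 2 of 19 cap genes (10.5%, 1.30 to 33.1). The groups are small and the intervals overlap widely. A difference between core and cap was not tested. Within the core both genes were pbs, so 2 of 7 beta-ring genes and 0 of 7 alpha-ring genes had a summit. The 0 allows a share of up to 42.9% (upper end of the exact 95% interval 41.0%). Within the cap both were lid genes, with 2 of 9 in the lid and 0 of 10 in the base. That 0 allows up to 30.0% (upper end of the exact 95% interval 30.8%). The first limit of each pair is 3 genes out of the number in the group. The second comes from a 2-sided interval, so the limits of a pair are not at the same level. Neither split was tested.

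Below the threshold more members had summits, still above the share of all genes. To rank 1320, at double the length of the thresholded list, 8 of 33 members had one (24.2%, against 4.93% of all genes). To rank 2640 it was 12 (36.4%, against 8.24%), and in the whole pooled list 21 (63.6%, against 25.4%). By side, 5 of 14 core genes and 7 of 19 cap genes had a summit to rank 2640, and 7 of 14 and 14 of 19 in the whole list. The core and cap shares were 21.4% and 26.3% to rank 1320, 35.7% and 36.8% to rank 2640, and 50% and 73.7% in the whole list, whose weak end holds background calls. In the whole replicate lists the order was not the same. The core and cap shares were 71.4% and 63.2% in replicate 1, against 28.1% of all genes. In replicate 2 they were 35.7% and 63.2%, against 28.3%. Members whose strongest summit ranked beyond 5280 numbered 7 of 33 (21.2%), against 12.5% of all genes.

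**Figure D2:**
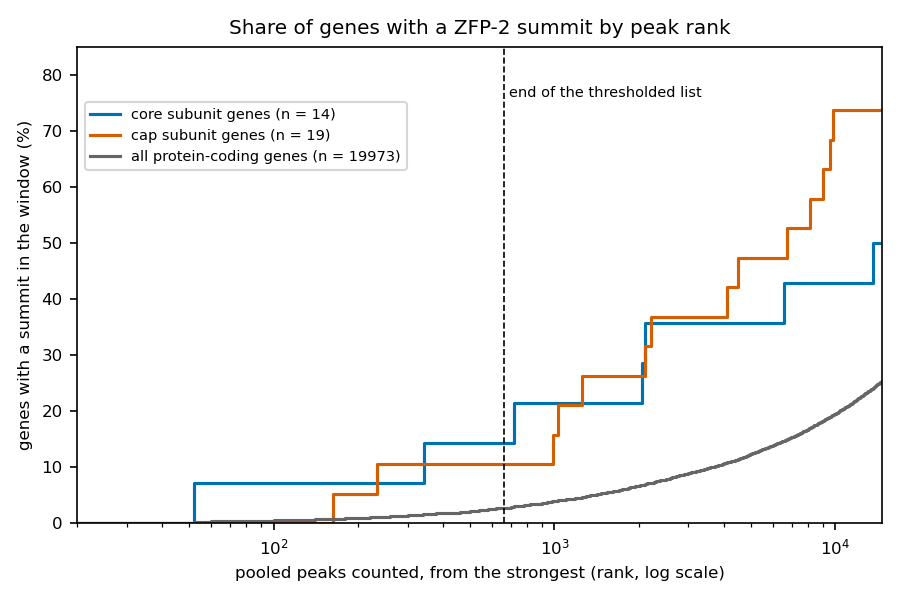
Share of genes (%) with a summit in the promoter window as pooled peaks are counted from the strongest, by rank on a log scale, for 14 core genes, 19 cap genes and all 19973 protein-coding genes. The dashed line marks rank 660, the end of the thresholded list. The core curve leaves 0 at rank 52 and the cap curve at rank 163, and at rank 2640 they stand at 35.7% and 36.8%, beside 8.24% of all genes.

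The 4 members next below the threshold came from both sides. The alpha-ring gene pas-4 had signal 80.6 in the pooled list (rank 717), 32.7 in replicate 1 (rank 948) and 49.6 in replicate 2 (rank 659), so it stood among the 660 strongest peaks of replicate 2 alone. The ATPase gene rpt-6 had 69.3 pooled (rank 986), 30.3 in replicate 1 (rank 1161) and 36.8 in replicate 2 (rank 1344). The lid gene rpn-9 had 68.1 pooled (rank 1028), 23.5 in replicate 1 (rank 2358) and 39.6 in replicate 2 (rank 1112). The ATPase gene rpt-2 had 62.0 pooled (rank 1258), 29.1 in replicate 1 (rank 1301) and 41.3 in replicate 2 (rank 1005). All 4 therefore had a summit in both replicates. The summits of 3 were shared with a divergent gene: pas-4 with rpb-3, a subunit of RNA polymerase II, rpn-9 with T06D8.9, and rpt-2 with aps-1, a clathrin adaptor gene whose 5′ end was only 85 bp from the summit. The rpt-6 summit counted for no other gene.

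Ranks 2050 to 2204 held 4 further members with closely similar pooled signals. They were the alpha-ring genes pas-3 (49.6) and pas-5 (49.2), the lid gene rpn-5 (49.1) and the ATPase gene rpt-1 (48.13). In replicate 1 and replicate 2, pas-3 had signals of 23.9 (rank 2230) and 24.2 (rank 4799) and pas-5 of 32.1 (rank 1006) and 31.9 (rank 2027). The rpn-5 signal was 15.7 in replicate 1 (rank 8662) and 35.4 in replicate 2 (rank 1500), and that of rpt-1 was 14.5 (rank 10911) and 30.4 (rank 2319), so the ranks of both differed widely between replicates. The rpn-5 summit was shared with scc-1, a cohesin gene. The pas-3 summit was 11 bp from the 5′ end of use-1, a SNARE gene, and 145 bp from that of pas-3. The pas-5 case stood apart by position. Its stronger pooled summit lay 914 bp upstream, inside the snoRNA gene F25H2.15. A weaker pooled summit (signal 32.2, rank 7329) lay 295 bp upstream. The strongest summit of replicate 1 lay 482 bp and that of replicate 2 916 bp upstream. Beyond these a thresholded peak of signal 84.0 (rank 657) lay 1119 bp upstream, 35 bp from that snoRNA gene and outside the pas-5 window. The part of the snoRNA gene in the pas-5 signal was not tested.

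The remaining 9 members with a pooled summit had signals from 25.8 to 38.8. Most were cap genes: rpn-6.1 (38.8), a lid subunit whose raised level increases proteasome activity in worms, the scaffold gene rpn-2 (37.7), the ATPase genes rpt-4 (33.1) and rpt-3 (29.4), rpn-10 (31.1), a ubiquitin receptor, rpn-8 (30.0), the lid partner of rpn-11, and rpn-12 (29.1), a lid subunit. The others were the beta-ring genes pbs-7 (33.4) and pbs-5 (25.8). The rpn-12 summit was shared with rad-23, which encodes a shuttle protein that brings ubiquitylated substrates to the proteasome. Those of rpn-6.1, rpn-2, pbs-7, rpt-4 and rpn-8 were shared with F57B9.1, C23G10.7, F39H11.1, nfyc-1 and the mitochondrial ribosome gene mrps-6, in that order. Only rpn-6.1 and rpn-2 of these 9 had a summit in the windows of both replicates.

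**Figure D3:**
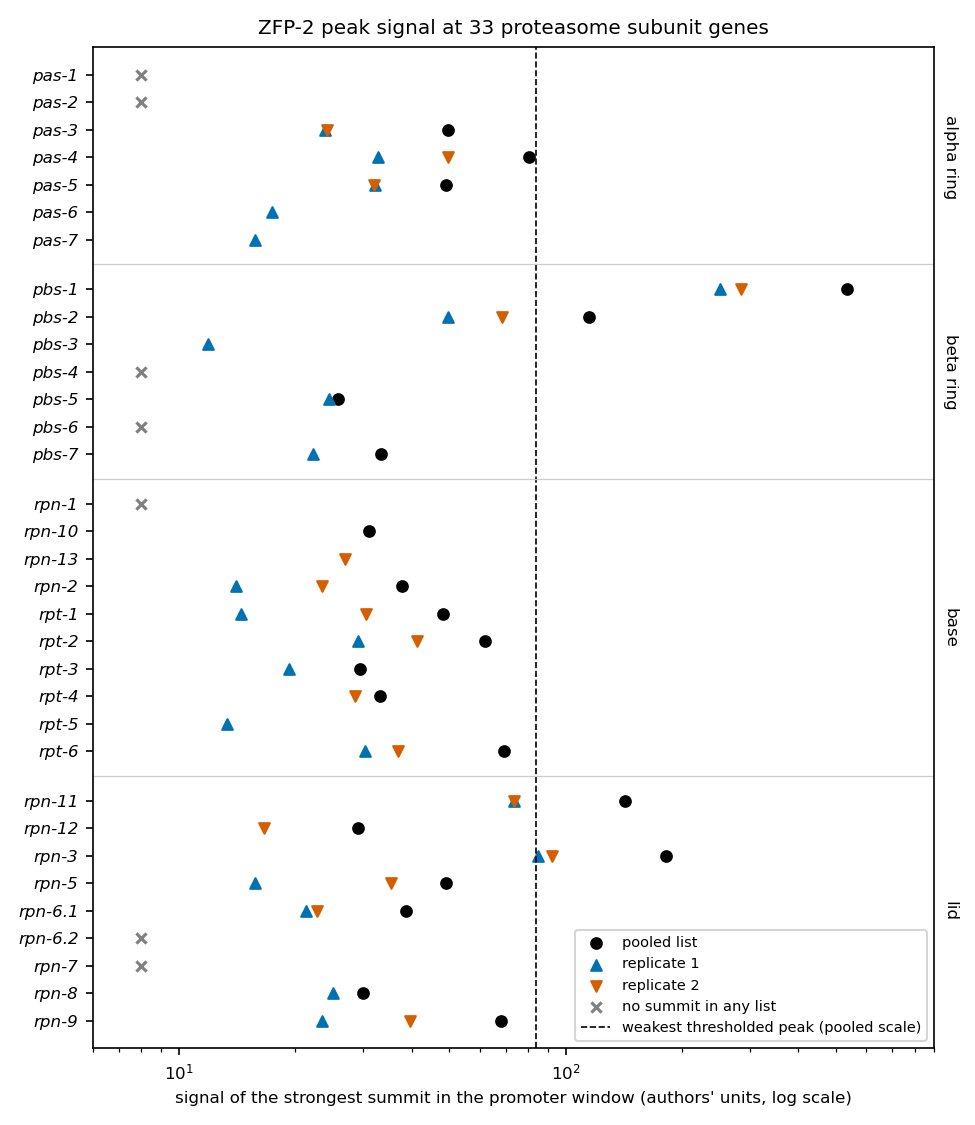
Signal of the strongest summit in the promoter window of each of the 33 members, on a log scale in the authors' units, in the pooled list (circles), replicate 1 (upward triangles) and replicate 2 (downward triangles), with crosses for members with no summit in any list. The dashed line is the weakest thresholded peak on the pooled scale. Only pbs-1, pbs-2, rpn-11 and rpn-3 have a pooled signal to its right, with pas-4 (80.6) next to it on the left.

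In the pooled list 12 members had no summit in the window. Of these, pas-6, pas-7, pbs-3 and rpt-5 had one in replicate 1 alone (signals from 11.9 to 17.5) and rpn-13, a ubiquitin receptor, in replicate 2 alone (26.9). For 7 members no list held a summit. They were the alpha-ring genes pas-1 and pas-2, the beta-ring genes pbs-4 and pbs-6, the base scaffold gene rpn-1 and the lid genes rpn-6.2 and rpn-7. The paralogues rpn-6.1 and rpn-6.2 thus differed, with a weak summit at rpn-6.1 and none at rpn-6.2, where the nearest pooled summit was 2535 bp upstream. At pas-7 the nearest pooled summit was 17122 bp away.

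Both replicates had a summit in the window of 14 of 33 members (42.4%), against 16.8% of all genes. A further 8 had one in replicate 1 only and 3 in replicate 2 only. In all, replicate 1 had a summit at 22 members (66.7%, against 28.1% of all genes) and replicate 2 at 17 (51.5%, against 28.3%). Over the 14, Spearman's rho of the ranks in the replicates was 0.864, as a description across genes of the same pair of libraries. Of the 21 pooled summits, 13 had a summit within 100 bp in both replicates, 4 in replicate 1 only and 4 in replicate 2 only. The 4 thresholded members, and pas-4, rpt-6, rpn-9 and rpt-2, were all among the 13.

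Of the strongest pooled summits of the 21 members, 18 were upstream of the 5′ end (85.7%), near the 83.3% of all 5064 protein-coding genes with a pooled summit. Within 400 bp upstream lay 16 of the 21 (76.2%, against 47.9%). The absolute distance had a median of 193 bp, against 253.5 bp over all such genes, and ranged from 4 bp at rpn-11 to 914 bp at pas-5. The 3 at or downstream of the 5′ end were those of rpn-5 (10 bp), rpn-10 (180 bp) and pbs-5 (193 bp). At rpt-4, which has 5′ ends far apart, the summit was 130 bp upstream of the more downstream one, and 115 bp upstream of nfyc-1. The rpn-6.1 summit, counted as upstream, was likewise 338 bp upstream of its more downstream 5′ end. It lay 723 bp downstream of the most upstream one. The rpn-5 summit lay 143 bp downstream of its most upstream 5′ end. The summit was shared with another gene's window in 14 of 21 cases (66.7%, against 32.2% of all genes with a pooled summit), for 5 core and 9 cap genes. The member's own 5′ end was the nearest in 16 (76.2%, against 80.3%). None of these differences was tested.

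**Figure D4:**
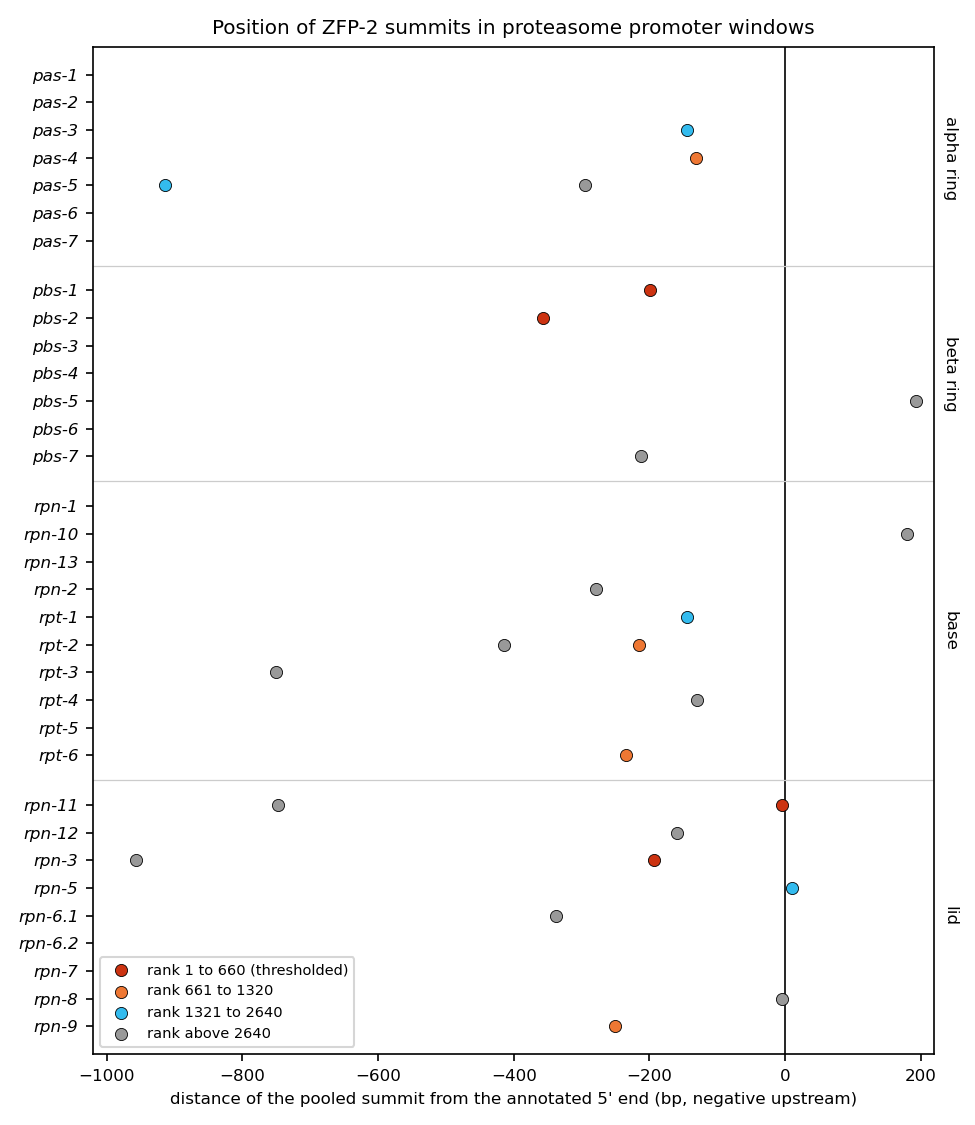
Distance in bp of each pooled summit from the nearest 5′ end of the gene whose window holds it, negative upstream, for the 33 members, with colour for the rank class of the peak. The 4 thresholded summits lie between 357 and 4 bp upstream, and the 4 of ranks 661 to 1320 between 251 and 132 bp upstream. The far summits of rpn-3 (957 bp), pas-5 (914 bp), rpt-3 (750 bp) and rpn-11 (747 bp) upstream are weaker, at rank 2095 or later.

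Members had a close divergent neighbour more often than all protein-coding genes did, though no test of this was made. A divergent neighbour began within 1000 bp upstream of the 5′ end in 21 of 33 members (63.6%), against 18.1% of all protein-coding genes. The end of a gene on the same strand lay within 500 bp upstream of 8 members (24.2%), nearer to the 18.1% of all genes. The rpn-6.2 gene had both, zif-1 at 780 bp and F59B2.15 at 55 bp. Each gene was put in a single class by its nearer neighbour, which left 20 members (60.6%, against 17.9%) as divergent and kept rpn-6.2 among the 8. The background was therefore also taken within each arrangement. With a divergent neighbour, 3 of 20 members had a thresholded summit (15%) against 7.41% of all such genes, and with a gene close upstream on the same strand 1 of 8 (12.5%) against 1.89%. Of the other 5 members 0 had one, against 1.76%. The same shares in the whole pooled list were 13 of 20 (65%) against 37.7%, 4 of 8 (50%) against 27.5%, and 4 of 5 (80%) against 21.3%. The rpt-4 gene counts among the other 5 because its most upstream 5′ end was used. How much of the members' share rests on this arrangement was not tested.

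For the 8 members with a gene close upstream, the window of that gene was examined too. None held a thresholded summit. The gene before pbs-5, K05C4.2, had a pooled summit of signal 65.7 (rank 1108) in its window, while pbs-5 had 25.8. The genes before rpn-10 (mrpl-9, signal 28.6) and pbs-3 (ulp-2, signal 26.6) had weak summits. No pooled summit lay in the windows of the genes before pas-1, rpn-13, rpt-3, rpn-11 and rpn-6.2.

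Other genes of the ubiquitin system had a share near that of the subunits. A hand-made list of 76 genes held enzymes of ubiquitin conjugation and removal, delivery factors and some regulators, among them skn-1. Of these, 9 had a thresholded summit (11.8%) and 40 a pooled one (52.6%), beside 12.1% and 63.6% of the proteasome genes. Among all protein-coding genes, the background for each list here, the shares were 2.79% and 25.4%. The strongest was at wwp-1, a ubiquitin ligase gene, with signal 1410 (rank 29), above every subunit gene. Next was cdc-48.1 (signal 701, rank 45), the AAA ATPase that extracts ubiquitylated proteins, followed by the ligase gene eel-1 (225), the shuttle gene ubql-1 (154), the conjugating enzyme genes let-70 (139) and ubc-6 (131), the ubiquitin fusion gene ubq-2 (110), akir-1 (98.1), whose human counterpart acts in nuclear import of proteasomes, and the conjugating enzyme gene ubc-25 (88.7). The COP9 signalosome is a complex related to the lid. Of its 6 genes, 0 had a thresholded summit and 5 had a pooled one (83.3%). The 0 allows up to 50% (upper end of the exact 95% interval 45.9%). The translation factor eIF3, some of whose subunits share domains with the lid, had 2 of 11 with a thresholded summit (18.2%, eif-3.C and eif-3.E) and 7 with a pooled one (63.6%), and the chaperonin CCT, another barrel of stacked rings, had 3 of 8 (37.5%, cct-8, cct-1 and cct-7) and 6 (75%). No difference between these lists and the proteasome genes was tested.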

How the data were processed

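ZFP-2 ChIP-seq peaks were taken from lists the authors deposited on the ce11 build: a thresholded list by irreproducible discovery rate, and pooled and per-replicate lists that served as its input, per the description file of the series. Signal is the deposited value of each peak, and the summit is the deposited offset from the peak start. Which aligner, peak caller and threshold were used is not given in the sources used here. The deposited lists were made against a control, which with the ce10 lists was not used here. Replicates are biological per the labels, and depth is unknown.

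Gene models came from Ensembl release 115 on WBcel235, the sequence of ce11, with 29784 5′ ends, and sequence from RefSeq. The members and gene lists were chosen with earlier results of these data known. Shares over all protein-coding genes therefore stand in for tests, and no p-value was computed. All members are named, as are genes that share their summits, near neighbours, and list genes with a thresholded summit. For the arrangement of neighbours the most upstream 5′ end was used. Symbols matched for 76 of 76 listed ubiquitin genes, 6 of 7 COP9, 11 of 13 eIF3 and 8 of 8 CCT genes. The assignment of summits to windows was tested on simulated data. Intervals came from scipy 1.17.1 and figures from matplotlib 3.10.9, under Python 3.11.15 with pandas 2.3.3 and numpy 2.4.6.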

Additional observations from a re-analysis of the deposited data

How the results depend on the processing

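The count of 4 members stayed within 1.5 times under 8 of 9 alternatives. The exception was the pooled list to rank 1320, with 8 members (24.2%, against 4.93% of all genes), of which 5 were cap genes. The share of all genes moved with the setting too, from 2.79% in the main count. The 330 strongest peaks held 3 members (9.09%, against 1.57% of all genes), losing pbs-2 and leaving 1 core gene. With each summit given only to its nearest 5′ end, pbs-2 was lost to eif-6, again leaving 1 core gene. That left 3 members (9.09%, against 1.9% of all genes). Replicate 1 alone gave the same 4 genes (12.1%, against 2.81%), and replicate 2 alone gave pas-4 in addition (15.2%, against 2.74%). In the window of 2000 bp upstream, and where any overlap of peak and window counted, pas-5 was added by the peak near the snoRNA gene F25H2.15. The share was then 15.2% in each, against 3.62% and 3.03% of all genes. A narrower window or 1 5′ end per gene left the 4 genes the same (12.1%, against 2.13% and 2.63% of all genes). Matched summits in both replicates numbered 9 within 50 bp and 14 within 200 bp, against 13 within 100 bp. With 2 replicates, 33 genes and unknown depth, weak summits cannot be told apart from background calls.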
